A study of Mus musculus with 2 samples.

Results

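Dividing IgA plasmablasts were followed among immune cells sorted from the intestines of Dpf2 KO and WT mice that had all received 10 Gy of X-rays. They were chosen by their own RNA counts, and 104 of 19577 filtered cells qualified, 16 of 8681 in the KO library and 88 of 10896 in the WT library. A qualifying cell had 20 or more unique molecular identifiers (UMIs, counts of single captured RNA molecules) of Jchain and 5 or more of Mzb1, Xbp1, Derl3 and Txndc5 together. Igha also had to lead the heavy-chain constant genes, Mki67 and Top2a together had to reach 3 UMIs, and Cd3e, Cd3d and Cd3g together could not exceed 1 UMI. IgA plasma cells that met the other criteria but had no Mki67 or Top2a UMI served as the non-dividing set, with 512 KO cells and 1002 WT cells. Each genotype was a single 10x library of live cells from digested intestine, sorted after a viability stain. The sources used here do not give which GFP or tdTomato gates entered the libraries, the time between irradiation and sampling, the number, age and sex of the mice or the deleted stretch of Dpf2. There was no unirradiated library, so every value describes irradiated tissue. With 1 library per genotype a KO to WT difference has no replicate check and no p-value, and genotype cannot be told apart from the mouse, the sort or the library. Intervals are 95%, other than the bounds on ratios of shares, and cover counting error only.

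Plasmablasts are the dividing stage between an activated B cell and a resting antibody-secreting plasma cell. In the gut most of them carry IgA, which is joined into dimers by the J chain, the product of Jchain, and carried across the epithelium. On the way to a resting plasma cell the transcription factors Blimp-1 (Prdm1), IRF4 and XBP1 silence B cell genes and enlarge the endoplasmic reticulum (ER), the compartment in which antibody chains are folded, while proliferation stops. Dpf2 encodes a histone-reading subunit of the canonical BAF chromatin remodelling complex.

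Not all of the 104 cells fitted the label: 3 KO and 7 WT cells had Jchain under 0.3% of their UMIs, a threshold set after the values were seen. The 3 KO cells held 54217, 63834 and 87421 UMIs and 199 to 358 UMIs of epithelial marker genes. Their Jchain share of 0.044% to 0.064% lay around the 0.048% median of KO T cells. T cells here had 3 or more UMIs of Cd3e, Cd3d and Cd3g together and fewer than 20 of Jchain. That cap holds their Jchain share down, so it is no independent measure of background RNA. The 7 WT cells had Jchain shares of 0.077% to 0.197%, against a median of 0.081% in WT T cells. Of these WT cells 5 had 140 to 308 UMIs of B cell identity genes, and the others had 398 and 539 UMIs of myeloid genes. These cells carried 49.3% of all UMIs of the KO cells chosen and 12.1% of those of the WT cells. Scrublet, a doublet caller, marked none of them. The values that follow are over the remaining 94 cells, 13 KO and 81 WT, set against 512 KO and 999 WT non-dividing cells chosen the same way, unless all 104 are named.

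Among the 94, T cell, myeloid and epithelial markers were low in most cells. T cell markers had a median of 1 UMI per cell in both libraries and at most 6 in both. The choice itself capped Cd3e, Cd3d and Cd3g together at 1 UMI per cell. Myeloid markers had a median of 4 UMIs in KO and 5 in WT, with highest values of 45 in KO and 81 in WT. Epithelial markers had a median of 1 UMI in both, with highest values of 10 in KO and 6 in WT. B cell identity genes had a median of 19 UMIs in KO and 30 in WT, with highest values of 74 in KO and 187 in WT. The highest WT value lay within the range of the WT cells low in Jchain, so these genes do not separate the sets. Scrublet called 1 KO and 7 WT plasmablasts doublets, out of 416 filtered cells (4.79%) called in KO and 637 (5.85%) in WT. They were kept. No plasmablast barcode occurred in the other library's file, although 24 barcodes in all did.

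**Figure D1:**
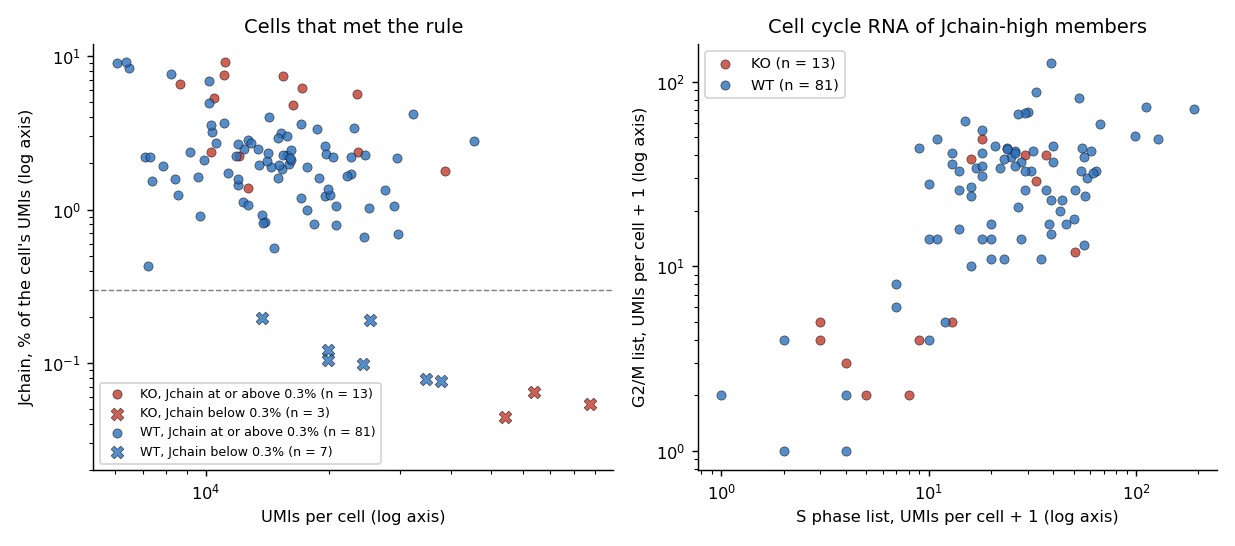
The left panel plots the Jchain share of each chosen cell's UMIs (percent, log axis) against its total UMIs (log axis) for KO and WT, with a dashed line at 0.3%, and the right panel plots UMIs of the G2/M list against UMIs of the S phase list, each plus 1 on log axes. The 10 cells under the line include the 3 deepest KO cells, and most of the 81 WT cells above it have UMIs of both cell-cycle lists.

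Dpf2 itself (ENSMUSG00000024826, minus strand, chr19:5896516-5913010, GRCm38) was close to the limit of detection. Levels here are UMIs per 1000000 UMIs outside immunoglobulin genes and Jchain. Dpf2 was at 20.5 in KO plasmablasts (3 UMIs in 3 of 13 cells, interval 4.22 to 59.8) and 29.8 in WT plasmablasts (32 UMIs in 25 of 81 cells, 20.4 to 42.1), a ratio of 0.686 (0.134 to 2.19). In the larger non-dividing set it was at 19.6 in KO (50 UMIs) and 27.7 in WT (145 UMIs), a ratio of 0.707 (0.502 to 0.982). A 3' count outside a deleted stretch would not report the deletion, so this does not check the genotype labels.

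Dividing cells made up a smaller share of the IgA plasma cells in the KO library. All 16 KO members were 0.184% of filtered cells (exact interval 0.105 to 0.299) and all 88 WT members 0.808% (0.648 to 0.994), a ratio of 0.228 (0.106 to 0.461). Bounds on these ratios divide the limits of the KO share by the opposite limits of the WT share. Of IgA plasma cells they were 2.70% in KO (16 of 593, 1.55 to 4.34) and 6.86% in WT (88 of 1282, 5.54 to 8.39), a ratio of 0.393 (0.185 to 0.784). Without the 10 cells low in Jchain the shares were 2.20% of 590 KO plasma cells and 6.38% of 1269 WT plasma cells, a ratio of 0.345 (0.150 to 0.733). At a stricter limit of 6 or more Mki67 and Top2a UMIs they were 1.02% in KO and 4.89% in WT, a ratio of 0.208 (0.0601 to 0.584). Those IgA plasma cells as a whole were 6.80% of filtered KO cells and 11.6% of filtered WT cells. The sort sets the mix of cells loaded, and its part in these shares was not tested.

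The members were unequal in how far above the limit they lay. Just outside it, 52 KO and 153 WT IgA plasma cells had 1 UMI of Mki67 and Top2a and 13 KO and 39 WT cells had 2. Just inside, 4 KO and 8 WT cells had 3. Of the 94, 7 of 13 KO cells (53.8%) and 19 of 81 WT cells (23.5%) had 3 to 5 such UMIs, 6 KO and 62 WT cells had 6 or more, and 2 KO and 23 WT cells had 15 or more. The median was 5 UMIs in KO (3 to 19) and 10 in WT (3 to 38). The median depth was 12682 UMIs per KO cell (8642 to 38521) and 14692 per WT cell (6059 to 45399). KO to WT differences among plasmablasts therefore also compare sets with different proportions of cells near the limit, and medians within the class of 6 or more, 6 KO and 62 WT cells, are given beside those of the KO over WT lists.

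Cell-cycle genes that the choice did not use put most WT members in cycle and divided the KO members. The S phase list (25 genes, among them the Mcm helicase subunits, Pcna and the ribonucleotide reductase subunits Rrm1 and Rrm2) summed to a median of 12 UMIs per KO cell (2 to 50) and 25 per WT cell (0 to 189). The G2/M and mitosis list (25 genes without Top2a and Mki67, among them Ccnb1, Cdk1 and Ube2c) summed to a median of 4 UMIs in KO (1 to 48) and 32 in WT (0 to 125). Both lists reached 5 UMIs in 6 of 13 KO cells and in 74 of 81 WT cells, and neither did in 4 KO and 5 WT cells. S phase UMIs exceeded G2/M UMIs in 7 KO cells and 40 WT cells, and the reverse held in 6 KO and 41 WT cells, so both libraries held cells on either side.

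The KO cells at the extremes show this range. The KO cell with most Mki67 and Top2a, 19 UMIs, had 28 S phase and 39 G2/M UMIs out of 16398 UMIs. Another with 14 had 17 S phase and 48 G2/M UMIs out of 12032. A KO cell with 10 was on the S phase side, with 50 S phase and 11 G2/M UMIs out of 17174. By contrast a KO cell with 3 had 4 S phase UMIs and 1 G2/M UMI out of 15463, and its immunoglobulin share of 48.5% was the highest of the 13.

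The same lists were then set against depth within classes of Mki67 and Top2a UMIs. Cells with 3 to 5 Mki67 and Top2a UMIs had 5.87 S phase UMIs per 10000 non-immunoglobulin UMIs in KO and 9.48 in WT, and 3.63 G2/M UMIs in KO and 7.24 in WT. With 6 to 14 they had 17.6 S phase UMIs in KO and 23.9 in WT, and 27.6 G2/M UMIs in KO and 23.7 in WT. With 15 or more they had 27.0 in KO and 23.6 in WT for S phase, and 30.0 in KO and 28.1 in WT for G2/M. Only 2 KO cells stand behind the last class, so it gives no order between genotypes.

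After each cell was thinned to 2000 UMIs, at least 1 G2/M list UMI remained in 53.8% of KO plasmablasts and 90.1% of WT plasmablasts, against 30.8% of KO and 32.7% of WT non-dividing cells. T cells, median depth 5654 UMIs in KO and 4908 in WT, gave 46.6% in KO and 54.1% in WT, so the KO share lay near that of T cells, a mixed population that also divides in part. Unthinned, the shares were 100% of KO and 97.5% of WT plasmablasts. An S phase UMI remained in 69.2% of KO and 91.4% of WT plasmablasts, against 44.1% and 45.8% of KO and WT non-dividing cells and 76.4% and 73.8% of KO and WT T cells. Thinning left out no plasmablast, 9 KO and 5 WT non-dividing cells and 4 KO and 37 WT T cells.

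Promoter sequences were read for the cell-cycle genes because that class has known promoter elements. RefSeq promoters (250 bases before to 50 after the start, build GRCm38.p6) were matched for 20 of the 25 G2/M genes and 21 of the 25 S phase genes. The CHR element, TTTGAA on either strand, a site of the cell cycle-dependent DREAM and B-Myb complexes, was found in 13 of the 20 G2/M promoters and 3 of the 21 S phase promoters, against 20.2% of 27025 promoters. The CCAAT box, bound by NF-Y, was found in 17 of the 20 G2/M promoters, against 41.1% of all. The E2F sequence TTTCCCGC was found in 5 of the 21 S phase promoters and 0 of the 20 G2/M promoters, against 1.24% of all. A match describes the letters in this window and shows no binding. Shown 5' to 3' on the gene's strand are the 120 bases that end just before the RefSeq start of 3 genes high in plasmablasts and of the replication-phase gene Hells. Capitals mark CHR (TTCAAA in this orientation) and CCAAT boxes (CCAAT or ATTGG) in the first 3 and the E2F sequence in the last. Ube2c (a ubiquitin-conjugating enzyme of the anaphase-promoting complex) lies at chr2:164769809-164769928 on the plus strand, Kif11 (a spindle motor) at chr19:37376262-37376381 on the plus strand, Top2a (topoisomerase II alpha) at chr11:99024190-99024309 on the minus strand and Hells (a chromatin remodelling helicase) at chr19:38930870-38930989 on the plus strand.
Ube2c: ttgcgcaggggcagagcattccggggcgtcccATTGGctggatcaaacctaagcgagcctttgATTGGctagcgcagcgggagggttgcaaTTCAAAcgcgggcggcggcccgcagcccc
Kif11: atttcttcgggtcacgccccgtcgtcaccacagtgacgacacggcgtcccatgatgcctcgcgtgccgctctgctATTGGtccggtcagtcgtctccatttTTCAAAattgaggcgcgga
Top2a: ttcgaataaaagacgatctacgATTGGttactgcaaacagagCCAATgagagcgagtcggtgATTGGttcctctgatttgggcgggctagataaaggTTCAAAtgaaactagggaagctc
Hells: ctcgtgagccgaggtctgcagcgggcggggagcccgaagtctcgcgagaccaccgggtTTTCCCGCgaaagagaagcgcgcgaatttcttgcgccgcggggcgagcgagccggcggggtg
In the first 3 the CHR begins 29, 19 and 23 bases before the start.

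Dividing cells were compared with non-dividing IgA plasma cells within each library. Because Mki67 and Top2a, which chose the cells, drive this contrast, all its values are descriptions. Ratios are log2 after adding 10 per 1000000 to each level, for genes with 100 or more UMIs over both sets and a UMI in at least 10% of cells of 1 set. Over the 104 cells, 501 of 4511 genes in KO (11.1%) were higher in plasmablasts by 2-fold or more and 645 (14.3%) lower by as much, and in WT 256 of 6761 (3.79%) and 187 (2.77%). Over the 94 cells these were 130 of 4166 genes (3.12%) higher and 361 (8.67%) lower in KO, and 236 of 6611 (3.57%) higher and 174 (2.63%) lower in WT. With all UMIs as the denominator, immunoglobulin included, the splits over the 104 cells became 1055 higher and 172 lower in KO and 841 higher and 25 lower in WT. The median gene then moved to 0.36 in KO and 0.47 in WT, from -0.14 in KO and 0.04 in WT.

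Replication and mitosis genes were the group furthest above the rest in WT. There 17 of the 25 S phase genes could be assessed and all 17 were higher in plasmablasts, 14 of them at least 2-fold (median log2 ratio 1.96), beside a positive ratio in 51.1% of all 6611 genes. All 12 assessable G2/M genes were higher, 10 at least 2-fold (median 2.20). In KO only 4 genes of each list could be assessed. Of the S phase genes 3 were higher and 1 lower (median 0.91), and of the G2/M genes 3 were higher and 1 lower (median 1.24), beside a positive ratio in 42.3% of all 4166 genes. Stmn1, a microtubule-destabilising protein, was at 130 per 1000000 in KO plasmablasts and 23.5 in KO non-dividing cells, and at 302 and 32.5 in WT plasmablasts and non-dividing cells. Tubb5, a beta tubulin, was at 464 against 117 in KO and 846 against 174 in WT. Ube2c was at 88.6 against 2.35 in KO and 257 against 5.55 in WT, and Kif11 at 184 against 29.02 in KO and 197 against 53.5 in WT.

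Chromatin genes of dividing cells showed the same direction in WT and a mixed picture in KO. All 20 assessable genes were higher in WT plasmablasts, 15 at least 2-fold (median 1.53), while in KO 12 of 15 were higher and 1 at least 2-fold (median 0.62). Hmgb2, an architectural DNA-binding protein, was at 641 in KO plasmablasts against 324 in KO non-dividing cells, and at 1426 against 365 in WT. Its relative Hmgb1 was at 334 against 290 in KO and 1025 against 306 in WT. The nucleosome-binding Hmgn2 was at 27.3 against 20.8 in KO, the plasmablast value resting on 4 UMIs in 3 cells, and at 230 against 24.1 in WT. Among replication-dependent histones, 6 of 8 were higher in WT plasmablasts (median 1.72) and the 3 assessable ones in KO had a median of 0.47, which was -0.84 with 6 or more Mki67 and Top2a UMIs. Hist1h2ap was at 218 against 40.8 in KO and 310 against 31.9 in WT. These histone genes are near copies of each other and their messages mostly lack poly(A), so their levels are uncertain. DNA repair genes were all higher in WT plasmablasts (13 of 13, 5 at least 2-fold, median 0.78), and 2 could be assessed in KO (median 0.18).

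**Figure D2:**
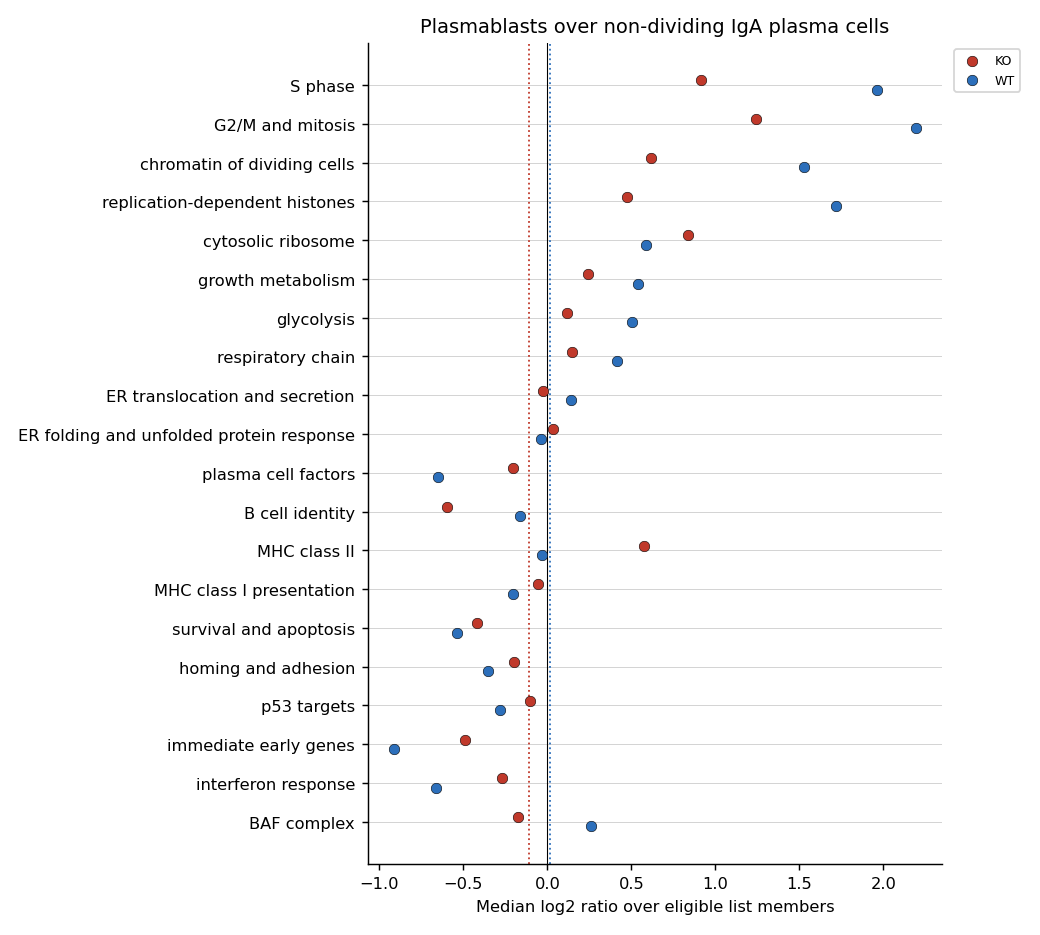
Each point is the median log2 ratio of 1 gene list, plasmablasts over non-dividing IgA plasma cells, for KO and WT, over the list members that could be assessed. Dotted lines are the medians over all assessable genes. The S phase and G2/M lists lie at 1.96 and 2.20 in WT and at 0.91 and 1.24 in KO, and the immediate early genes at -0.49 in KO and -0.91 in WT.

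Most genes of protein synthesis were higher in dividing cells of both libraries by smaller amounts, and growth genes depended on the set of KO cells. All 25 ribosomal protein genes were higher in KO plasmablasts, 7 at least 2-fold (median 0.84), and 24 of 25 in WT, 2 at least 2-fold (median 0.59). The ribosomal protein gene Rps2 was at 2584 against 1078 in KO and at 3660 against 1564 in WT. Npm1, a nucleolar chaperone of ribosome assembly, was at 1193 against 418 in KO, with 68.0% of the plasmablast UMIs in 1 cell, and at 1237 against 451 in WT. Growth metabolism genes were higher in 7 of 12 cases in KO (median 0.24) and 13 of 19 in WT (median 0.54). With 6 or more Mki67 and Top2a UMIs their median was -0.81 in KO and 0.65 in WT, and that of the ribosomal protein genes 0.25 in KO and 0.64 in WT. Glycolysis genes were higher in 7 of 11 in KO (median 0.12) and 10 of 15 in WT (median 0.51), and respiratory chain genes in 15 of 19 in KO (median 0.15) and 18 of 20 in WT (median 0.42). Gapdh, a glycolytic enzyme whose many pseudogene copies can take reads, was at 1323 against 338 in KO and 745 against 407 in WT.

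Antibody RNA relative to the rest of the cell was lower in dividing cells, and the libraries differed here. Immunoglobulin genes took 26.1% of the UMIs of KO plasmablasts and 38.2% of those of KO non-dividing cells, against 13.8% and 36.0% in WT plasmablasts and non-dividing cells. Over all 104 cells the plasmablast shares were 13.4% in KO and 12.2% in WT. In T cells, whose Jchain UMIs the choice capped, the share was 0.456% in KO and 0.768% in WT. Per cell, the KO median was 41.1% with no Mki67 or Top2a UMI, 39.3% with 1 or 2, 40.4% with 3 to 5 (14.98% to 48.5%) and 18.4% with 6 or more (12.1% to 31.3%). The WT medians in the same order were 38.0%, 34.1%, 14.6% (4.34% to 44.1%) and 12.2% (3.71% to 39.7%). By their medians, KO cells with 3 to 5 such UMIs lay at the level of non-dividing cells, whereas WT cells with 3 to 5 lay near those with 6 or more. Within 6 to 14 UMIs the medians were 18.4% in KO and 12.7% in WT. Within the plasmablasts, Mki67 and Top2a per 10000 other UMIs and the immunoglobulin share had a Pearson r of -0.21 and a Spearman rho of -0.17 over 13 KO cells, and 0.07 and 0.03 over 81 WT cells.

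In absolute UMIs the lower share went with more other RNA. Plasmablasts had to reach a raw count of Mki67 and Top2a UMIs, and non-dividing cells had to lack them. That choice favours deeper cells among the plasmablasts, and its part in the UMI differences that follow was not tested. Non-immunoglobulin UMIs had a median of 10030 per KO plasmablast and 4162 per KO non-dividing cell, and of 12623 and 4795 in WT plasmablasts and non-dividing cells. Immunoglobulin UMIs had a median of 4509 against 3331.5 in KO and of 1833 against 3190 in WT. Igha, the IgA heavy chain, had a median of 1749 UMIs per KO plasmablast against 1609 per KO non-dividing cell, and of 654 against 1315 in WT. Jchain took a median of 5.32% of a KO plasmablast's UMIs against 6.69% in KO non-dividing cells, and 2.10% against 6.49% in WT. Jchain itself chose the cells of both sets, through 20 or more UMIs and the 0.3% share, so these medians are descriptions. With the cells low in Jchain included, the medians were 3.60% in KO plasmablasts and 1.96% in WT plasmablasts. The non-dividing medians were then 6.69% in KO and 6.48% in WT.

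**Figure D3:**
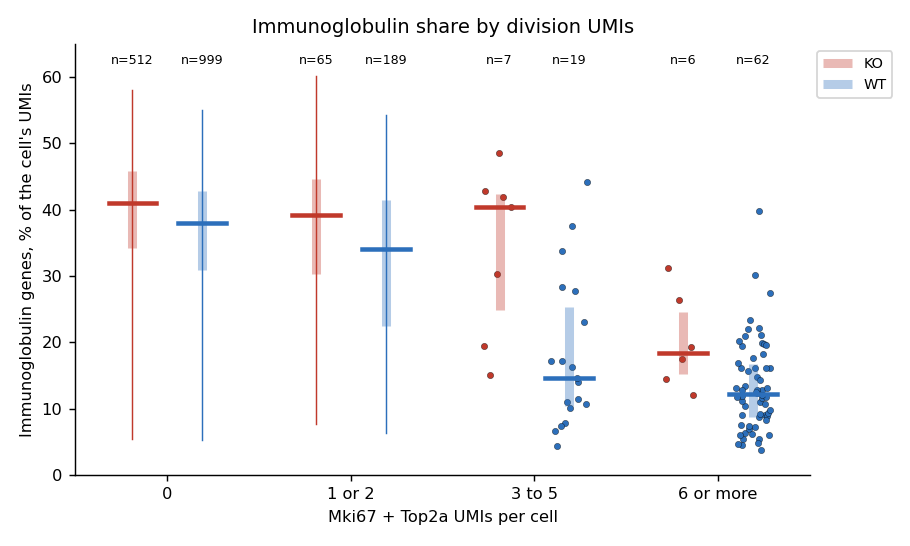
The immunoglobulin share of each IgA plasma cell's UMIs (percent) is plotted by its number of Mki67 and Top2a UMIs for KO and WT. The horizontal bar, in the library's colour, is the median and the thick pale line spans the quartiles. A thin line gives the full range in the classes below 3 UMIs, and single cells are points in the classes of 3 or more. The median with 3 to 5 UMIs is 40.4% in KO (7 cells) and 14.6% in WT (19 cells).

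The choice required Igha to lead the heavy-chain constant genes, so the isotype is no finding. As a description, no plasmablast had Ighm or an Ighg gene at 10% or more of its Igha UMIs, 0 of 13 in KO and 0 of 81 in WT (exact upper limits 24.7% in KO and 4.45% in WT). Igkc, the kappa light chain, exceeded the lambda constant genes in 13 of 13 KO cells and 77 of 81 WT cells.

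Many variable segments were in use, as far as they were captured. A heavy-chain variable segment reached 10 UMIs in 4 of 13 KO cells, a different one in each, and in 21 of 81 WT cells, which used 15 segments. Ighv10-3 led the WT cells with 4 of 21, and it also led the non-dividing cells of both libraries, with 18 of 203 in KO and 32 of 315 in WT. A light-chain variable segment was found in 10 KO cells (8 segments) and 43 WT cells (19 segments). The lambda segment Iglv1 was assigned in 2 of 10 KO and 8 of 43 WT plasmablasts, against 28 of 285 KO and 220 of 690 WT non-dividing cells. Both segments were found in 4 KO plasmablasts, all with different pairs, and in 14 WT plasmablasts with 11 pairs, no pair held by more than 2 cells. Near-identical segments can exchange reads, and a shared pair of segments does not show a shared clone.

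The secretory and identity programmes differed less between dividing and non-dividing cells than the cell-cycle genes. Of the ER folding and unfolded protein response genes 14 of 26 were higher in KO plasmablasts (median 0.03) and 12 of 26 in WT (median -0.04). Of the ER translocation and secretion genes 14 of 30 were higher in KO (median -0.03) and 19 of 30 in WT (median 0.14). Over all 104 cells the KO medians were -0.60 and -0.48, so these 2 depended on the cells low in Jchain. Plasma cell factors were lower in 11 of 15 in KO (median -0.20) and 14 of 16 in WT (median -0.65), 3 of the WT genes at least 2-fold. Xbp1, the transcription factor that expands the secretory apparatus, was at 1691 against 2424 in KO and at 937 against 1920 in WT. Its UMIs counted towards the choice in both sets. Sdc1, the plasma cell surface marker CD138, was at 252 against 275 in KO and 124 against 266 in WT, while Prdm1 was at 436 against 315 in KO and 348 against 322 in WT.

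Receptors and stimulus-response genes were set against all genes, of which 42.3% in KO and 51.1% in WT had a positive ratio. Survival and apoptosis genes were lower in 10 of 14 in KO (median -0.42) and 11 of 15 in WT (median -0.54). TACI, the product of Tnfrsf13b and a receptor for the survival factors BAFF and APRIL, was at 225 against 305 in KO and 122 against 266 in WT. Homing and adhesion genes were lower in 7 of 12 in KO (median -0.20) and 10 of 14 in WT (median -0.35), the KO count being near the share of all genes. Ccr9, the small-intestinal homing receptor, was at 109 against 145 in KO and at 130 against 157 in WT, and Ccr10, a mucosal homing receptor, at 191 against 165 in KO and 210 against 224 in WT. Immediate early genes were lower in 17 of 18 in KO (median -0.49, 1 at least 2-fold) and 18 of 18 in WT (median -0.91, 7 at least 2-fold). Interferon response genes were lower in 5 of 8 in KO (median -0.27), again near the share of all genes, and 12 of 12 in WT (median -0.66). With 6 or more Mki67 and Top2a UMIs the KO medians of the homing and interferon lists were 0.14 and 0.17, so their direction in KO depended on that limit. B cell identity genes were lower in 8 of 9 in KO (median -0.60) and 8 of 11 in WT (median -0.16). Cd79a, a signalling chain of the B cell receptor, was at 259 against 396 in KO and 153 against 459 in WT. T cell markers were lower in 5 of 5 assessable genes in WT plasmablasts (median -0.65), and myeloid markers in 6 of 7 in KO (median -1.68) and 5 of 5 in WT (median -0.66). The choice capped Cd3e, Cd3d and Cd3g together at 1 UMI per cell in both sets. In the deeper plasmablasts that cap means a lower level of these genes, so the T cell value is no finding. The part of free RNA in these marker values was not tested.

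Single genes were named by the smaller of their changes in the 2 libraries. Highest over the 104 cells were Top2a itself and Ube2c, then Diaph3, Ect2, Stmn1, Hells, Tuba1b, Tmpo, Tubb5 and Anp32b, at 4.98, 4.03, 3.21, 3.06, 2.96, 2.63, 2.60, 2.39, 2.33 and 2.23, followed by Hmgn2, Hist1h2ap, Lsm5, Dut and Hmgb2 down to 1.97. Over the 94 cells the list was led by Hist1h2ap, Tubb5, Kif11, Atad2, Lsm5 and Smc4, at 2.17, 1.90, 1.70, 1.68, 1.64 and 1.57, and went on to Tmpo, Npm1, Anp32b, Nucks1, Hdgf, Pa2g4, Hint1, Rps2 and Tmsb10, the last at 1.18. Smc4 is a condensin subunit and Ect2 a regulator of cytokinesis. Lowest over the 94 cells were Arfgef3, Lpp, Prlr, St6galnac3 and Ly6a, at -1.71, -1.50, -1.47, -1.31 and -1.25, then Gas7, Gpnmb, Adssl1, Inpp4b, Prg2, Vav3, Rapgef3, Kremen1, Socs3 and Pls1, the last at -1.13. Prlr, the prolactin receptor, was at 27.3 in KO plasmablasts against 98.8 in KO non-dividing cells and at 16.8 against 64.3 in WT. Over the 104 cells Prg2, Cacna1s, Fam129a, Inpp4b and Lsmem1 were lowest, at -2.23, -1.81, -1.81, -1.70 and -1.65, followed by Prlr, Kremen1, Hist1h1c, Tsc22d3, Cacna1e, Cd79a, Rapgef3, St6galnac3, Trf and Ly6a, the last at -1.35. Of 86 genes at least 2-fold higher in WT and assessable in both libraries, 74 (86.0%) had a positive ratio in KO, against 42.5% of 4139 genes, and of 133 at least 2-fold lower, 111 (83.5%) were negative in KO. Across those 4139 genes, which are not independent, the ratios had a Pearson r of 0.36.

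KO plasmablasts were then compared with WT plasmablasts. Over all 104 cells 140 of 3130 genes (4.47%) were higher in KO by 2-fold or more and 286 (9.14%) were lower by as much. Over the 94 cells 108 of 2447 genes (4.41%) were higher and 262 (10.7%) lower, and 40.2% had a positive ratio (median -0.14). In the non-dividing cells 65 of 5807 genes (1.12%) passed 2-fold upwards in KO and 37 (0.637%) downwards, and 45% were positive. The plasmablast counts rest on 146684 non-immunoglobulin UMIs in KO and 1072730 in WT, so many of the 2-fold differences of low genes are within counting error.

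The secretory genes were lower in KO, in dividing and non-dividing cells. Of the 30 ER translocation and secretion genes 29 were lower in KO plasmablasts and 11 at least 2-fold (median -0.91, and -0.89 with 6 or more Mki67 and Top2a UMIs), and in non-dividing cells all 30 were lower and 5 at least 2-fold (median -0.62). The exception in plasmablasts was Ssr4, a subunit of the translocon-associated complex, at 859 in KO and 639 in WT. Rpn1, a subunit of the oligosaccharyltransferase that attaches sugars to nascent chains, was at 225 in KO and 803 in WT plasmablasts, a ratio of 0.280 (0.192 to 0.397), and at 145 and 329 in KO and WT non-dividing cells. Sec24d, a coat protein of vesicles that leave the ER, was at 81.8 and 306 in KO and WT plasmablasts and at 209 and 318 in KO and WT non-dividing cells.

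ER folding genes followed the same direction. Of 25 assessable genes 19 were lower in KO plasmablasts and 9 at least 2-fold (median -0.59, and -0.69 with 6 or more Mki67 and Top2a UMIs), and in non-dividing cells 23 of 26 were lower and 9 at least 2-fold (median -0.54). Hspa5, the ER chaperone BiP, was at 1643 in KO and 3231 in WT plasmablasts, a ratio of 0.509 (0.444 to 0.580), and at 1701 and 4170 in KO and WT non-dividing cells. Hsp90b1, the chaperone GRP94, was at 3013 and 7571 in KO and WT plasmablasts and at 2406 and 5641 in KO and WT non-dividing cells. Manf, a secreted ER stress protein, was at 368 and 1325 in KO and WT plasmablasts and at 329 and 1044 in KO and WT non-dividing cells. Pdia6, a disulphide isomerase, was at 286 and 893 in KO and WT plasmablasts and at 248 and 540 in KO and WT non-dividing cells. For these genes the KO level was lower than the WT level in each set with counting intervals that did not overlap. Atf6 and Ppp1r15a, which act in transcription and translational control, stood on the other side. The ER-anchored transcription factor Atf6 was at 1902 in KO and 1180 in WT plasmablasts, and Ppp1r15a, which restarts translation after stress, at 484 in KO and 154 in WT.

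Promoters of the folding genes are shown because ATF6 and XBP1 act on them through the ER stress response element (ERSE), CCAAT, 9 bases of any kind and CCACG. The motif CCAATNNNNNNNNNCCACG was present on either strand in 8 of 24 matched promoters of the 27 ER folding genes, namely Hspa5, Hsp90b1, Pdia6, Calr, Canx, Dnajc3, Creld2 and Syvn1. It was present in 0 of 22 matched ER translocation promoters and in 37 of all 27025 promoters (0.137%). The CCAAT box alone, which the ERSE contains, was in 20 of the 24. The sequences are from RefSeq, GRCm38.p6, 120 bases that end just before the start, 5' to 3' on the gene's strand, with the ERSE in capitals (its reverse complement in Hsp90b1). Hspa5 lies at chr2:34771970-34772089 (plus strand), Hsp90b1 at chr10:86705445-86705564 (minus strand) and Pdia6 at chr12:17266469-17266588 (plus strand).
Hspa5: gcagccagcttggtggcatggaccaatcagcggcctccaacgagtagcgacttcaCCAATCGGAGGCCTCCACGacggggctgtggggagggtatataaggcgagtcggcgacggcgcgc
Hsp90b1: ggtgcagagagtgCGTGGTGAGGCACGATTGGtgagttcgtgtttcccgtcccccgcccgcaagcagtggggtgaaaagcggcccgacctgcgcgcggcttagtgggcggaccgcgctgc
Pdia6: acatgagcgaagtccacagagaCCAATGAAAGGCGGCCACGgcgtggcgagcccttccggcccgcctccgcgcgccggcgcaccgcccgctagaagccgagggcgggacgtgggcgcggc
The element begins 65, 107 and 98 bases before the start. Calr, also with the element, was at 382 in KO and 1081 in WT plasmablasts, and Creld2 at 320 in KO and 488 in WT. Secretion genes without it, such as Rpn1 above and Ssr2 (61.4 in KO and 276 in WT), were also lower.

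Cell-cycle genes were mostly lower in KO plasmablasts, whose median of 5 Mki67 and Top2a UMIs per cell was also below the WT median of 10. The part of that difference in these values was not tested. Of 9 assessable S phase genes 7 were lower and 5 at least 2-fold (median -1.08), and of 8 G2/M genes all 8 were lower and 4 at least 2-fold (median -1.08). Among cells with 6 or more Mki67 and Top2a UMIs the S phase median was -0.69 and the G2/M median -0.59. Over all 104 cells they were 0.05 and -0.07, and in the non-dividing cells -0.07 and 0.15. Rrm2 was at 6.82 in KO, 1 UMI, and 114 in WT, a ratio of 0.0599 (0.00151 to 0.340). Cks1b, a cyclin-dependent kinase subunit, was at 34.1 in KO (5 UMIs in 3 cells) and 221 in WT. Pcna, the replication clamp, was among the S phase genes with a higher value in KO, 245 against 193 in WT. Chromatin genes of dividing cells were lower in 18 of 18 (median -0.96, 9 at least 2-fold), and in 16 of 18 with 6 or more Mki67 and Top2a UMIs (median -0.82). Hmgb1 was at 334 in KO and 1025 in WT, and Tuba1b, an alpha tubulin, at 102 in KO and 398 in WT. The G1 list of cyclins, E2F factors and cell-cycle brakes was higher in KO in 6 of 6 (median 0.82) and in 4 of 4 with 6 or more Mki67 and Top2a UMIs (median 1.20). Over the 94 cells Cdk6, a G1 kinase, was at 361 in KO and 199 in WT and the anti-proliferative Btg1 at 968 in KO and 458 in WT.

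**Figure D4:**
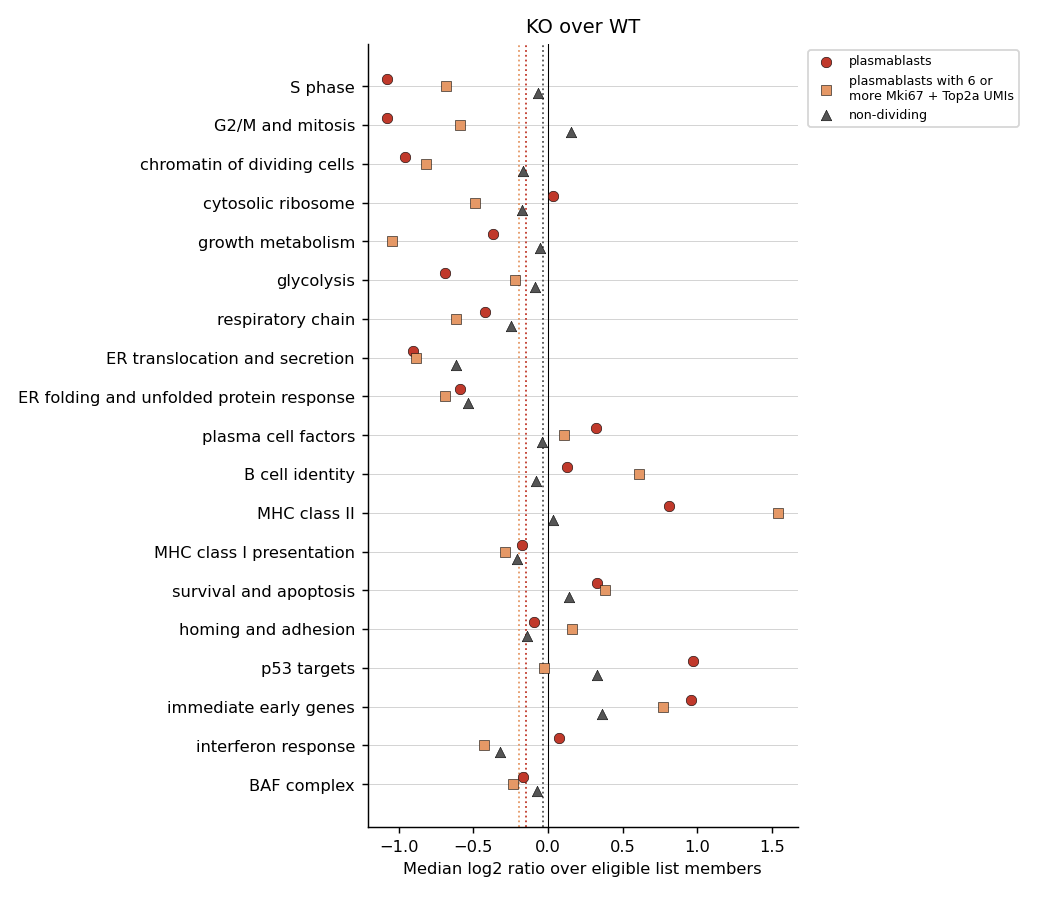
Each symbol is the median log2 ratio of KO over WT for 1 gene list, in plasmablasts, in plasmablasts with 6 or more Mki67 and Top2a UMIs and in non-dividing IgA plasma cells. Dotted lines are the medians over all assessable genes. ER translocation lies at -0.91, -0.89 and -0.62 in the 3 sets and the immediate early genes at 0.96, 0.77 and 0.36.

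Immediate early genes were higher in KO. Of 16 assessable genes 14 were higher in KO plasmablasts and 7 at least 2-fold (median 0.96), 12 of 13 were higher among cells with 6 or more Mki67 and Top2a UMIs (median 0.77), where 39.2% of all genes were positive, and 15 of 18 in non-dividing cells (median 0.36). Fos was at 1050 in KO and 390 in WT plasmablasts, a ratio of 2.69 (2.23 to 3.25), and at 1496 and 1157 in KO and WT non-dividing cells. Jun, its partner in AP-1, was at 914 and 308 in KO and WT plasmablasts and at 1397 and 1031 in KO and WT non-dividing cells. Nfkbia, the NF-kappa B inhibitor, was at 1350 and 501 in KO and WT plasmablasts and at 1987 and 1215 in KO and WT non-dividing cells. The lowest of the 4 sets was the WT plasmablasts for all 3 genes.

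The inducible heat shock gene Hspa1b was at 627 in KO (12 of 13 cells) and 83.9 in WT (28 of 81 cells), a ratio of 7.48 (5.53 to 10.1), with 47.8% of the KO UMIs in 1 cell. In non-dividing cells it was at 539 in KO and 199 in WT. Its near-identical copy Hspa1a, which can share reads, was at 273 and 36.4 in KO and WT plasmablasts. In the heat shock list as a whole 3 of 8 were higher in KO plasmablasts (median -0.33, and -0.13 with 6 or more Mki67 and Top2a UMIs). That count was near the 40.2% of all genes with a positive ratio. Over the 104 cells all 10 assessable genes were higher (median 0.60), where 41.5% of all genes were positive. Hspa8, the constitutive cytosolic chaperone, was at 423 in KO and 821 in WT.

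Among p53 targets, 6 of 7 were higher in KO plasmablasts, 2 at least 2-fold (median 0.97), and 11 of 14 in non-dividing cells (median 0.33). Among cells with 6 or more Mki67 and Top2a UMIs the median was -0.02. Mdm2, the ubiquitin ligase of p53, was at 886 in KO and 447 in WT plasmablasts, a ratio of 1.98 (1.62 to 2.41), and at 1022 and 649 in KO and WT non-dividing cells. Cdkn1a, the cell-cycle inhibitor p21, was at 177 and 83.9 in KO and WT plasmablasts and at 223 and 113 in KO and WT non-dividing cells. Ccng1 was at 355 and 125 in KO and WT plasmablasts, with 80.8% of the KO UMIs in 1 cell.

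B cell and plasma cell identity genes went both ways. Of 7 assessable B cell identity genes 4 were higher in KO plasmablasts (median 0.13, and -0.92 over all 104 cells). Of 13 plasma cell factors 9 were higher (median 0.32, and -0.64 over all 104 cells). With 6 or more Mki67 and Top2a UMIs these medians were 0.61 and 0.11. Ly6d, a surface protein of B-lineage and plasma cells in mice, was at 130 in KO (19 UMIs in 7 of 13 cells, 52.6% of them in 1 cell) and 1213 in WT (1301 UMIs in 77 of 81 cells). Its ratio was 0.107 (0.0641 to 0.167). After thinning to 2000 UMIs Ly6d was found in 7.69% of KO and 66.7% of WT plasmablasts, in 19.3% of KO and 56.4% of WT non-dividing cells and in 1.73% of KO and 6.72% of WT T cells. Unthinned, it was found in 53.8% of KO and 95.1% of WT plasmablasts. Bach2, a repressor that holds B cells back from plasma cell fate, was at 402 in KO and 839 in WT plasmablasts and at 644 and 939 in KO and WT non-dividing cells. Ebf1, a B-lineage transcription factor, was at 695 and 408 in KO and WT plasmablasts and at 706 and 290 in KO and WT non-dividing cells. Xbp1 was at 1691 in KO and 937 in WT plasmablasts, a ratio of 1.80 (1.56 to 2.08). Its UMIs counted towards the choice, together with those of Mzb1, Derl3 and Txndc5. Of the 807 KO UMIs of these genes together 328 were in 1 cell, against a median of 40 per cell. Sdc1 was at 252 in KO and 124 in WT, a ratio of 2.03 (1.37 to 2.95). Cd28, the costimulatory receptor that plasma cells use for survival, was at 211 and 450 in KO and WT plasmablasts and at 404 and 750 in KO and WT non-dividing cells.

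**Figure D5:**
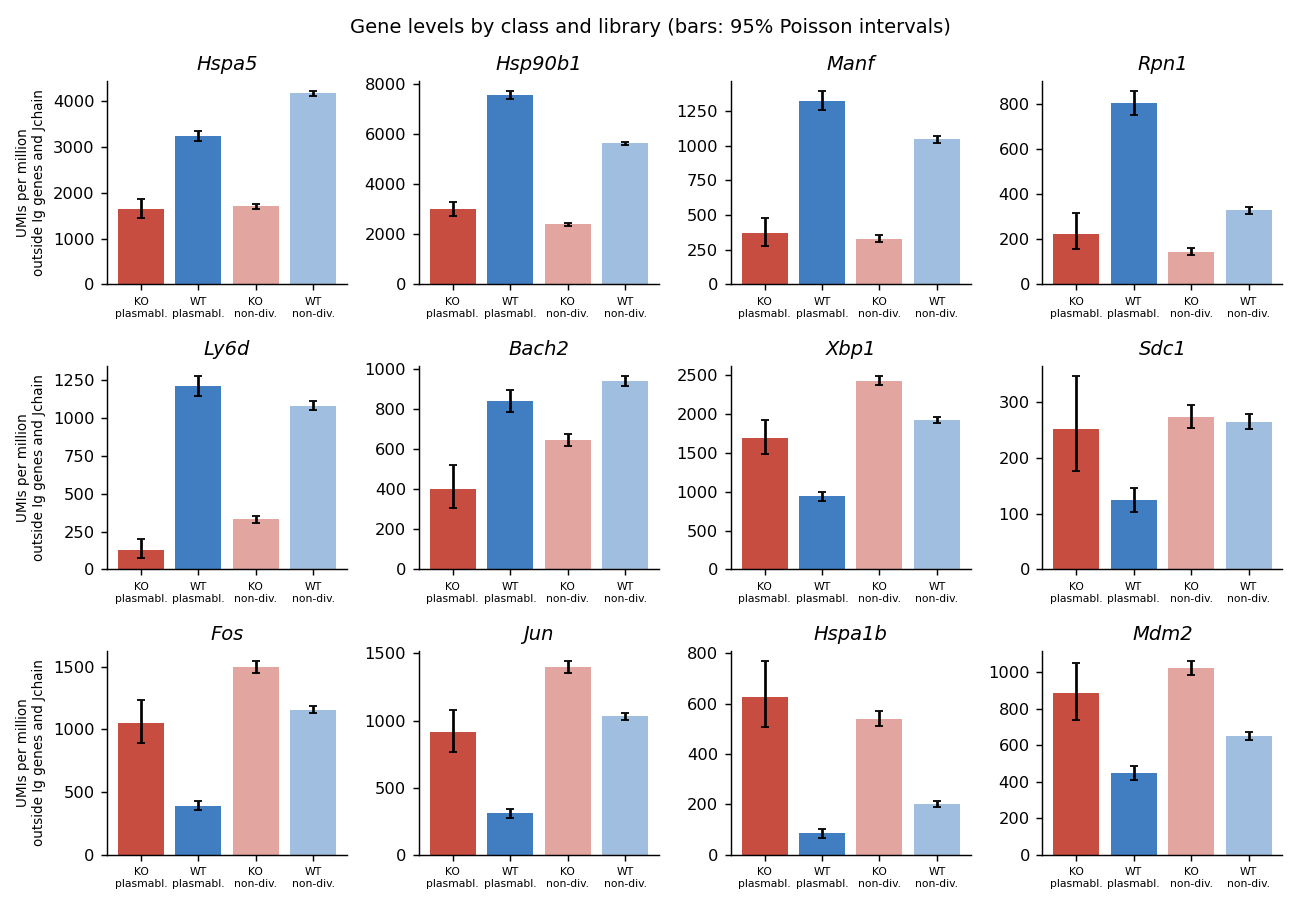
Bars are levels (UMIs per 1000000 UMIs outside immunoglobulin genes and Jchain, linear axes from 0) of 12 genes in KO and WT plasmablasts (13 and 81 cells) and KO and WT non-dividing IgA plasma cells (512 and 999 cells), with 95% Poisson intervals. Hspa5, Hsp90b1, Manf, Rpn1, Ly6d and Bach2 are lower in KO in both sets, and Fos, Jun, Hspa1b, Mdm2 and Xbp1 higher.

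Of the remaining groups, 4 of 4 assessable MHC class II genes were higher in KO plasmablasts (median 0.81, and 1.54 with 6 or more Mki67 and Top2a UMIs), whereas the median over the 104 cells was -0.59. Cd74, the class II invariant chain, was at 3259 in KO and 1572 in WT, and 67.2% of the KO UMIs of H2-Aa were in 1 cell. Growth metabolism genes were lower in 9 of 12 (median -0.37), glycolysis genes in 7 of 9 (median -0.69) and respiratory chain genes in 15 of 17 (median -0.42). With 6 or more Mki67 and Top2a UMIs these medians were -1.05, -0.22 and -0.62, and 0 of 9 growth metabolism genes were higher in KO. Over all 104 cells the same medians were 0.05, 0.17 and 0.33, so their direction depended on the cells low in Jchain. Ribosomal protein genes were at a median of 0.03, with 14 of 25 higher, and at -0.49 among cells with 6 or more Mki67 and Top2a UMIs, with 4 of 25 higher. BAF complex genes were lower in 7 of 8 (median -0.17) and in 4 of 7 with 6 or more Mki67 and Top2a UMIs (median -0.24). Both medians lay near those of all assessable genes, -0.14 and -0.20, of which 40.2% and 39.2% had a positive ratio. Pbrm1, a subunit of the related PBAF complex, was at 68.2 in KO (10 UMIs in 5 cells) and 271 in WT plasmablasts, and at 171 and 181 in KO and WT non-dividing cells. Survival and apoptosis genes were higher in 6 of 8 (median 0.33), homing and adhesion genes in 3 of 8 (median -0.09), MHC class I presentation genes in 4 of 11 (median -0.18) and interferon response genes in 3 of 5 (median 0.07). With 6 or more Mki67 and Top2a UMIs these medians were 0.38, 0.16, -0.29 and -0.43, so the homing and interferon lists changed sign. Over all 104 cells they were -0.17, -0.88, -0.76 and -0.22. The homing and MHC class I counts over the 94 cells lay near the 40.2% of all genes with a positive ratio. Isg15, an interferon-induced ubiquitin-like protein, was at 423 in KO, all of it in 5 of 13 cells, and 49.4 in WT.

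The rule for single genes named, over the 104 cells, Gpx2, Olfm4, Cdh1, Cldn7, Klf5, Lmo7, Krt18, Lgals4, Tspan8 and Mtus1 as highest in KO, at log2 ratios from 6.40 to 4.78. Most of these are epithelial genes. Each had 0 or 1 UMI in the 13 KO cells with high Jchain, so their values rest on the 3 cells low in Jchain. Lowest over the 104 cells were Ly6d, Lrrk2, Cdk14, Sec24d, Gfod1, Dnm3, Manf, Bach2, Fkbp11 and Bhlhe41, at -3.77 to -2.17, and over the 94 cells they were at -3.13, -0.05, -0.61, -1.78, -1.06, -1.59, -1.82, -1.04, -1.70 and -1.35. Over the 94 cells the highest ratios were those of Fap, Isg15, Hspa1b, Ccl5 and Ifih1, at 3.48, 2.86, 2.76, 2.54 and 2.40, then Rgcc, Lsmem1, Nfkb1, S100a6 and Tmtc2, the last at 1.96. For each of these genes at least 1 KO cell held over 25% of the KO UMIs. Among genes with no KO cell above 25% of their UMIs the highest were Mast4, Map3k5, Mir155hg, Nfkbia, Fos, Tnfaip3, Junb, Lmna, Ttll5 and Fosb, at 1.498 to 1.27. Nfkbia, Tnfaip3 and Mir155hg, the host gene of microRNA-155, are known targets of NF-kappa B. Nfkb1, which encodes the p105 and p50 subunits, was at 1329 in KO and 271 in WT plasmablasts. It was found in all 13 KO cells, but 1 of them held over 25% of its KO UMIs. In non-dividing cells Nfkb1 was at 589 in KO and 327 in WT. Lowest over the 94 cells after Ly6d were S100a10, Rrm2, Hmgn2, Cks1b and Phf14, at -2.95, -2.88, -2.69, -2.39 and -2.30, then Smdt1, Brip1os, Clic1 and Nfxl1, the last at -2.01. S100a10 rests on 2 KO UMIs, a ratio of 0.0791 (0.0095 to 0.290).

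Both libraries held RNA of either sex. Xist without a Y-linked UMI was found in 4 of 13 KO and 25 of 81 WT plasmablasts, Y-linked UMIs without Xist in 5 KO and 18 WT, and both in 1 KO and 25 WT.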

How the data were processed

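The authors deposited a 10x matrix of UMI counts for each library, made with Cell Ranger 7.0.0 on GRCm38, per the submitters' processing notes. No filter beyond the deposited barcodes is given in the sources used here. The files hold 8794 KO barcodes with 49590755 UMIs and 10958 WT barcodes with 64786549 UMIs. Cells with 500 or more UMIs, 200 or more genes and at most 20% mitochondrial UMIs were kept. UMIs were summed per library and class, and levels are per 1000000 UMIs outside 395 immunoglobulin genes and Jchain, because antibody RNA takes a large and variable part of each cell. Ratios add a pseudocount of 10, and a gene is called at 2-fold. Intervals are Poisson for levels, conditional binomial for ratios of levels and Clopper-Pearson for shares, at 95%. Bounds on a ratio of shares divide the limits of the KO share by the opposite limits of the WT share and are not 95% intervals. Named genes are the 10 highest and lowest in KO over WT, and the 15 highest and lowest by the smaller change for plasmablasts over non-dividing cells. Immunoglobulin, sex-linked, haemoglobin, mitochondrial and unnamed genes and the marker genes of other cell types were not ranked. Scrublet in scanpy 1.11.5 called doublets. Python 3.11.15, numpy 2.4.6, pandas 2.3.3 and scipy 1.17.1 were used, and the steps were tested on simulated data. GENCODE vM21 matched 54809 of 54838 gene IDs. The members, the 30 gene lists and the named rules were chosen with earlier results of these data known. Cells of 1 library are not replicates, so no test between libraries was made.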

Additional observations from a re-analysis of the deposited data

How the results depend on the processing

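The shares fell on the same side, KO below WT, under every limit tried. The 2-fold counts over all 104 cells and the immunoglobulin shares depended on the settings below, and the cause was not tested except where the setting itself leaves out cells or genes.

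With all UMIs as denominator, 1055 genes were higher and 172 lower in KO plasmablasts than in KO non-dividing cells, and 841 and 25 in WT, and in KO the medians of MHC class II (0.17) and ER translocation (0.088) turned positive. Without called doublets the immunoglobulin share was 13.3% in KO and 12.5% in WT. With cells weighted alike the KO counts were 232 higher and 291 lower, the immunoglobulin shares 22.5% in KO and 13.4% in WT, and the KO over WT medians of plasma cell factors (0.12) and MHC class II (0.045) and the KO plasmablast median of MHC class II (0.24) changed sign. A pseudocount of 50 gave 135 genes lower in KO than WT plasmablasts, 281 higher and 252 lower in KO plasmablasts than non-dividing cells, and 106 and 46 in WT. A pseudocount of 1 gave 386 and 331 in WT. With 20 UMIs and no filter on cells, 659 genes were higher and 628 lower in KO than WT plasmablasts, 1319 and 1035 in KO plasmablasts than non-dividing cells, and 412 higher in WT.

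At 2 or more Mki67 and Top2a UMIs, 190 genes were lower in KO than WT plasmablasts, and 348 (KO) and 110 (WT) were lower in plasmablasts than non-dividing cells. The shares were 0.334% and 4.89% in KO and 1.17% and 9.91% in WT, and the immunoglobulin share 19.97% in KO and 14.5% in WT. At 6 or more the shares were 0.104% and 1.52% in KO and 0.624% and 5.30% in WT, and the immunoglobulin share 6.80% in KO and 11.7% in WT. With the limit set relative to depth, 87 genes were higher and 185 lower in KO than WT plasmablasts, 329 were higher in KO plasmablasts than non-dividing cells, the KO glycolysis median was -0.058 and the WT shares were 0.633% and 5.38%. Depth-matched non-dividing cells gave 264 genes higher in KO plasmablasts.

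Leaving out the 10 cells low in Jchain, an alternative chosen after seeing the data, gave 130 higher and 361 lower in KO plasmablasts than non-dividing cells and immunoglobulin shares of 26.1% in KO and 13.8% in WT. Values that changed sign for KO over WT included plasma cell factors (0.32), MHC class II (0.81), heat shock (-0.33), Klf5 (-0.13), Krt18 (-0.25) and Mtus1 (-0.13). Respiratory chain (-0.42), glycolysis (-0.69), growth metabolism (-0.37) and S phase (-1.08) also changed sign. So did B cell identity (0.13), survival and apoptosis (0.33) and interferon response (0.07). For KO plasmablasts over non-dividing cells they included MHC class II (0.58), ER folding (0.035) and replication-dependent histones (0.47). With cells also weighted alike, the KO counts were 134 and 317. Values that changed sign then included plasma cell factors (0.36), MHC class II (0.51), homing (0.12), heat shock (-0.16), Klf5 (-0.090), Krt18 (-0.22), Mtus1 (-0.20) and Lrrk2 (0.11) for KO over WT. For KO plasmablasts they included MHC class II (0.48), ER folding (0.048), ER translocation (0.0050), homing (0.030) and glycolysis (-0.015). With 6 or more Mki67 and Top2a UMIs as well, plasma cell factors (0.11), MHC class II (1.54), homing (0.16), heat shock (-0.13), Lmo7 (-0.42), Krt18 (-0.30) and Lrrk2 (0.71), among others, changed sign for KO over WT. For KO plasmablasts MHC class II (1.20), ER folding (0.20), homing (0.14), Lsmem1 (0.0041) and Cacna1e (0.32), among others, did. In that set 249 genes were higher in KO plasmablasts, the shares were 0.0691% and 1.02% in KO and 0.569% and 4.89% in WT, and the immunoglobulin shares 20.9% in KO and 13.2% in WT.

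The split by Xist and Y-linked UMIs was not run, since KO had under 20 plasmablasts. No paired analysis was possible because each genotype has 1 library. The 13 KO cells, with 146684 non-immunoglobulin UMIs, limit every KO plasmablast value.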
